A study of Mus musculus with 18 samples.

Results

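The 10 genes described here encode netrins (Ntn1, Ntn4), netrin-Gs (Ntng1, Ntng2) and the netrin receptors DCC (Dcc), neogenin (Neo1) and UNC5A to UNC5D (Unc5a, Unc5b, Unc5c, Unc5d). They were chosen by name, with earlier results of these data known, and all 10 are among the 24015 genes of the count table. RNA was sequenced from tdTomato-positive mouse cortical neurons that were sorted by flow cytometry at postnatal day 5, about 25000 cells per sample. There were 4 libraries in each of 3 groups: layer 6 (L6) neurons of the genotype Tbr1 Layer 6 Null, wild-type (WT) layer 5 (L5) neurons and WT L6 neurons. TBR1, the product of Tbr1, is a transcription factor made in deep cortical layers, and the series title asks how its dose shapes the connections of layer 6. The samples are labelled as a layer 6 null and the series design as a constitutive null, so the group is called null here. The driver of tdTomato, the part of Tbr1 that the null allele lacks and the mouse strain of the sorted neurons were not stated.

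Netrins are laminin-related proteins that steer growing axons. Netrin-1 and netrin-4 are secreted. DCC and neogenin mediate attraction to netrin-1, UNC5 receptors mediate repulsion alone or together with DCC, and neogenin is also the receptor of the repulsive guidance molecules. Netrin-Gs differ in that they are anchored in the membrane, do not bind DCC or UNC5, and meet partners of the NGL family across the synapse. UNC5 receptors also bind FLRT proteins on neighbouring cells. In the cortex DCC and UNC5 receptors are known for axon choice and for the migration of projection neurons.

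Library totals were 41091165 to 47540669 counts in null L6, 27465597 to 39703820 in WT L5 and 32982957 to 54899002 in WT L6. Levels are CPM, the usual unit of reads scaled to library size, with library sizes adjusted by the trimmed mean of M-values (TMM) over all 12 libraries. Tbr1 itself stood at 94.7 ± 2.42 CPM in null L6, 42.6 ± 2.37 CPM in WT L5 and 176 ± 6.84 CPM in WT L6 (SD, n = 4 each). Null L6 libraries were lower than WT L6 libraries by a log2 fold change of -0.89 ± 0.035 (edgeR adjusted p = 8.53e-09) and were not free of Tbr1 reads; with the allele not stated, this shows direction only. The label codes of layer 6 libraries share a digit in replicates 1 with 2 and 3 with 4, and counts were closer within these pairs (chi-square per degree of freedom 3.21 to 10.4) than across them (10.6 to 59.4). In layer 5 the close pairs were 1 with 3 (1.39) and 2 with 4 (1.33), across sequencing batches B and C, beside 2.94 to 3.35 for other pairs. A value of 1 would be counting error alone, so the 4 WT L5 libraries may stand for fewer independent samples. SDs and p-values with n = 4 may be too small. With pairs summed, 9 of the 10 genes were called in each comparison with WT L5. The main test called 85.5% of all genes in WT L5 against WT L6 and 84.3% in null L6 against WT L5. Such a count of the 10 genes is therefore close to that background. The labels do not say whether replicates came from separate animals; the p-values then reflect variation among these libraries, which may be technical. Xist, the RNA of the inactive X chromosome, was at 262 to 299 CPM in null L6, 39.5 to 41.1 CPM in WT L5, 0.448 to 0.458 CPM in WT L6 replicates 1 and 2 and 287 to 289 CPM in replicates 3 and 4. Null libraries are therefore compared below with each WT pair as well. Summed markers of L6 corticothalamic neurons were at 1510 to 1547 CPM in null L6, 784 to 809 CPM in WT L5 and 1780 to 1904 CPM in WT L6, and 9 of 12, Tbr1 itself included, fell and 1 rose in null L6 against WT L6; 4 of the 12 were called with libraries summed within pairs.

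In null L6 neurons, 5 of the 10 genes rose against WT L6: Ntng1, Unc5c, Ntn4, Dcc and Ntng2. Unc5b fell, and Ntn1, Neo1, Unc5a and Unc5d did not pass the test. All 10 passed the filter on low counts. A gene was called at an adjusted p under 0.05 (edgeR's quasi-likelihood test, Benjamini-Hochberg adjustment over 14588 genes), which 14.2% of all tested genes passed, 7.31% upward and 6.86% downward. Null and WT libraries were fully separated for the same 6 called genes, beside 19.9% of all genes. The median log2 fold change was 0.22 over the 10 genes and 0.00034 over all genes. The 10 genes were chosen with earlier results of these data known, so their count and median are description only. Rn45s, the ribosomal RNA precursor, took 0.592% to 2.67% of counts in null L6 and 0.384% to 0.723% in WT L6, and its part in these values was not tested. In bulk samples like these, fewer cells of a type and less RNA per cell cannot be told apart.

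**Figure D1:**
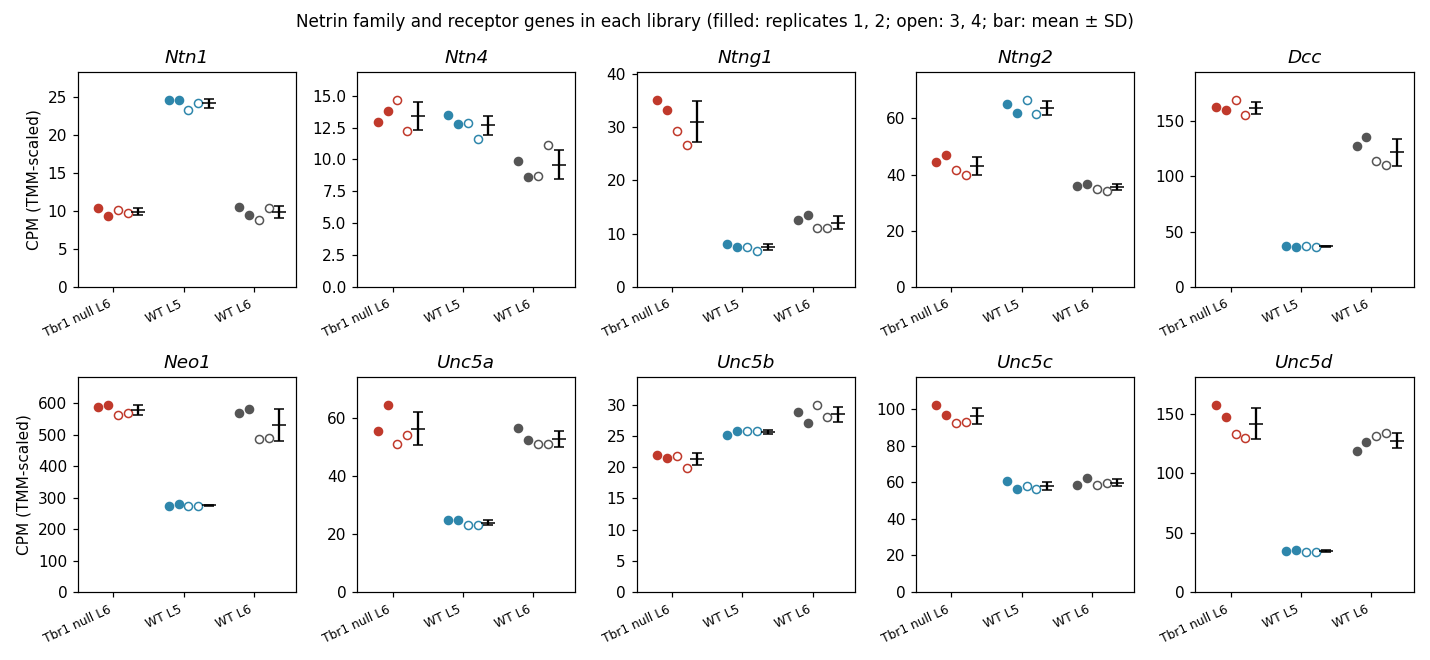
CPM (TMM-scaled, linear axis from 0) of each gene in the 4 libraries of Tbr1 null L6, WT L5 and WT L6, with filled points for replicates 1 and 2, open points for 3 and 4, and the mean ± SD beside them. Ntng1, Unc5c and Dcc are highest in all 4 null libraries, and Ntng1, Dcc, Neo1, Unc5a and Unc5d are lowest in all 4 WT L5 libraries.

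Among the secreted ligands, Ntn1, the classical netrin, was at 10.4, 9.39, 10.1 and 9.72 CPM in null L6 and at 10.6, 9.52, 8.81 and 10.4 CPM in WT L6. The 2 ranges overlapped almost fully, and the 95% interval of the log2 fold change ran from -0.16 to 0.18. Ntn4, whose product lies in basement membranes, was at 12.9, 13.8, 14.7 and 12.2 CPM in null L6 and at 9.90, 8.66, 8.72 and 11.1 CPM in WT L6. Every null library was above every WT library, with a log2 fold change of 0.48 ± 0.092 (SE) and an edgeR adjusted p of 0.00347. Ntn4 had 516 to 629 reads per null L6 library and 290 to 616 reads per WT L6 library.

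The netrin-Gs both rose. Ntng1 encodes netrin-G1, which binds NGL-1. It was at 35.2, 33.2, 29.3 and 26.7 CPM in null L6 and at 12.6, 13.5, 11.1 and 10.99 CPM in WT L6. The lowest null library was above the highest WT library. The log2 fold change was 1.37 ± 0.092, or 2.59-fold, with an edgeR adjusted p of 5.56e-07, and in absolute size it ranked 115 among 14588 genes. Null libraries 1 and 2, which share a label code, were both above null libraries 3 and 4. Ntng2 encodes netrin-G2, which binds NGL-2. It was at 44.4, 47.1, 41.6 and 39.8 CPM in null L6 and at 35.97, 36.6, 34.9 and 34.3 CPM in WT L6, without overlap. Its log2 fold change was 0.29 ± 0.053 with an edgeR adjusted p of 0.00262. The call was lost at an edgeR adjusted p of 0.114 when libraries were summed within pairs, 2 against 2. Reads of Ntng1 per read of Ntng2 were 0.671 to 0.791 in null L6 and 0.319 to 0.368 in WT L6, ratios that are not corrected for gene length.

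Of the attractive receptors, Dcc rose and Neo1 did not pass. Dcc was at 163, 160, 169 and 156 CPM in null L6 and at 128, 136, 114 and 110 CPM in WT L6. All null libraries were above all WT libraries, at a log2 fold change of 0.41 ± 0.058 and an edgeR adjusted p of 0.000299. WT libraries 1 and 2 stood above WT libraries 3 and 4, so the log2 fold change was 0.30 against the first WT pair and 0.53 against the second, both called. Neo1 was at 589, 595, 564 and 569 CPM in null L6 and at 569, 581, 486 and 490 CPM in WT L6. The first WT pair lay within the range of the null libraries and the second below it. The log2 fold change of Neo1 was 0.12 (95% interval 0.0050 to 0.24, edgeR adjusted p = 0.166) against all WT libraries, 0.010 against the first pair (adjusted p = 0.898) and 0.25 against the second (adjusted p = 0.0012). The WT pairs differ in Xist as given above, and the part of that difference in Dcc and Neo1 was not tested.

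The 4 UNC5 genes did not move together. Unc5c was at 102, 96.8, 92.7 and 92.9 CPM in null L6 and at 58.7, 62.4, 58.5 and 59.9 CPM in WT L6. The groups were far apart, with a log2 fold change of 0.68 ± 0.040 and an edgeR adjusted p of 1.63e-07. Against the first and second WT pair alone the log2 fold change of Unc5c was 0.67 and 0.70. Unc5b, best known from blood vessels and tip cells of growing vessels, was at 21.9, 21.5, 21.9 and 19.9 CPM in null L6 and at 28.8, 27.1, 29.9 and 28.1 CPM in WT L6. It was the 1 gene of the 10 that fell, by 0.42 ± 0.051 on the log2 scale, with an edgeR adjusted p of 0.000102. Unc5a was at 55.6, 64.3, 51.0 and 53.9 CPM in null L6 and at 56.5, 52.4, 51.1 and 50.8 CPM in WT L6, with overlapping groups and a 95% interval of the log2 fold change of -0.046 to 0.23. Unc5d, whose product binds FLRT2 and is known from migrating cortical neurons, was at 157, 147, 133 and 129 CPM in null L6 and at 119, 126, 131 and 134 CPM in WT L6. Its interval was 0.027 to 0.28, with an edgeR adjusted p of 0.107, and it was called at an adjusted p of 0.0412 without null replicate 4.

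Within a library, reads of Unc5c per read of Unc5b were 4.24 to 4.67 in null L6, 2.18 to 2.41 in WT L5 and 1.96 to 2.30 in WT L6. The null libraries stood apart from the other 8 in this ratio. Reads of the 4 UNC5 genes together per read of Dcc were 1.76 to 2.07 in null L6, 3.78 to 3.91 in WT L5 and 1.98 to 2.48 in WT L6. Here the layer 6 groups overlapped and layer 5 stood apart. These ratios were formed after the values were seen and were not tested.

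**Figure D2:**
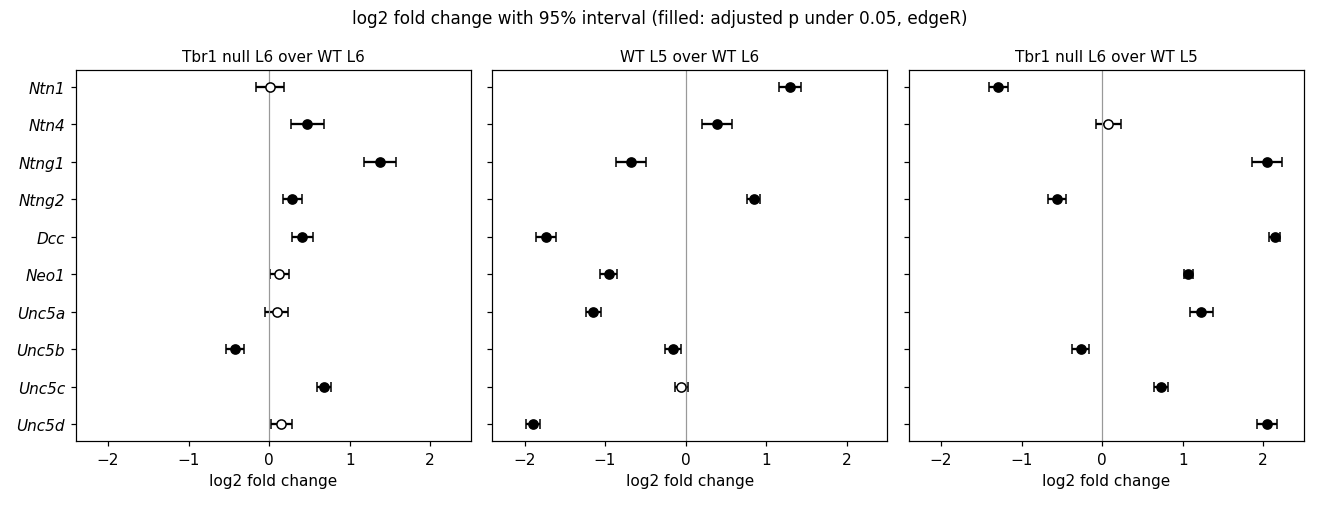
log2 fold change with its 95% interval (edgeR) for the 10 genes in null L6 over WT L6, WT L5 over WT L6 and null L6 over WT L5, with filled points at an adjusted p under 0.05. Ntng1 stands at 1.37, -0.68 and 2.05 in the 3 panels and Unc5c at 0.68, -0.052 and 0.73.

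Ntng1 and Unc5c, the genes with the largest rises of the 10, both lie on mouse chromosome 3, and their promoters are shown because the 2 genes rose together. The windows are the 250 bases before the annotated start in RefSeq (GRCm38.p6), which gave windows for 7 of the 10 genes, and are written 5′ to 3′ on the gene's strand. Ntng1 lies at chr3:110143473-110143722 on the minus strand and Unc5c at chr3:141465314-141465563 on the plus strand. Capitals mark the letters AGGTGT or their reverse complement ACACCT, the first part of AGGTGTGA, a half-site to which T-box factors bind.
Ntng1: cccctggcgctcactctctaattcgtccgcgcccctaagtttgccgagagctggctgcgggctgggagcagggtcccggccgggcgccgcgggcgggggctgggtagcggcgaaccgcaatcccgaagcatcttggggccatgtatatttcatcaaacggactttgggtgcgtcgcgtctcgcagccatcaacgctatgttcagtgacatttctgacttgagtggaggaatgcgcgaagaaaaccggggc
Unc5c: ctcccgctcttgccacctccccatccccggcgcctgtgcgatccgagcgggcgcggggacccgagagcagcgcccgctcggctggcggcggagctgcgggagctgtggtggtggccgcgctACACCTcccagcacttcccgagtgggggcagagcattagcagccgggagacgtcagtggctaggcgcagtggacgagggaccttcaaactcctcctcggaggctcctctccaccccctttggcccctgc
AGGTGTGA, searched on both strands, was in 0 of the 7 windows, beside 1.12% of 32851 windows of all genes. The shorter AGGTGT was in the windows of Unc5c and Ntng2, beside 11.8% of all windows. These letters describe the sequence, and nothing is drawn from them about TBR1 binding. The GC content was 62.4% for Ntng1 and 71.2% for Unc5c, against a median of 52.4% over all windows. It was 83.2% for Neo1, 76.8% for Unc5a, 73.2% for Ntn4, 66.8% for Unc5b and 52.4% for Ntng2, so a high GC content was not particular to Ntng1 and Unc5c. TBR1 binding at the 10 genes was not analysed here, because the peak lists carry no gene names and no annotation of their build was used.

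The partners of these genes were counted from 2 lists. Of 23 ligands and coreceptors, 4 rose in null L6, 3 fell and 16 were not called, with a median log2 fold change of 0.035. Flrt3, which encodes an FLRT ligand of UNC5 receptors, rose by 1.03 ± 0.098 on the log2 scale, at 164 ± 29.9 CPM in null L6 and 80.1 ± 1.88 CPM in WT L6 (SD, n = 4 each). Lrrc4c, which encodes NGL-1, the partner of netrin-G1, was at 108 ± 1.253 CPM in null L6 and 84.7 ± 7.41 CPM in WT L6, a log2 fold change of 0.35 ± 0.052. Lrrc4, which encodes NGL-2, the partner of netrin-G2, fell by 0.16 ± 0.036 on the log2 scale. Dscaml1, a relative of the netrin receptor gene Dscam, fell by 0.37 ± 0.075, and Cbln1, a secreted synapse organiser, by 0.31 ± 0.058. Rgma and Rgmb, ligands of neogenin, and Draxin, a netrin-binding guidance protein, were not called. The other genes that rose were Lphn2 and Lphn3, which encode latrophilins that bind FLRT proteins, at 0.15 ± 0.041 and 0.26 ± 0.035. The largest edgeR adjusted p among these 7 calls was 0.0247 for Lphn2.

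Of 32 genes that act inside the cell downstream of netrin receptors, 6 rose, 2 fell and 24 were not called. The median log2 fold change was 0.056. Pak1, a kinase activated by RAC1 and CDC42, rose by 0.30 ± 0.031 on the log2 scale (edgeR adjusted p = 2.23e-05). Myo10, a myosin that carries DCC into filopodia, rose by 0.23 ± 0.048, and Dock1, an exchange factor for RAC1, by 0.20 ± 0.042. Bcar1, a docking protein that is phosphorylated after netrin-1, fell by 0.17 ± 0.036. Against WT L6 replicates 3 and 4 alone, Myo10, Dock1 and Bcar1 were not called, at edgeR adjusted p of 0.077, 0.0572 and 0.0602. With libraries summed within pairs, 1 of the 23 and 1 of the 32 genes were called, and Lrrc4c, Dscaml1, Cbln1, Myo10, Dock1 and Bcar1 lost their calls at edgeR adjusted p of 0.0654 to 0.178.

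**Figure D3:**
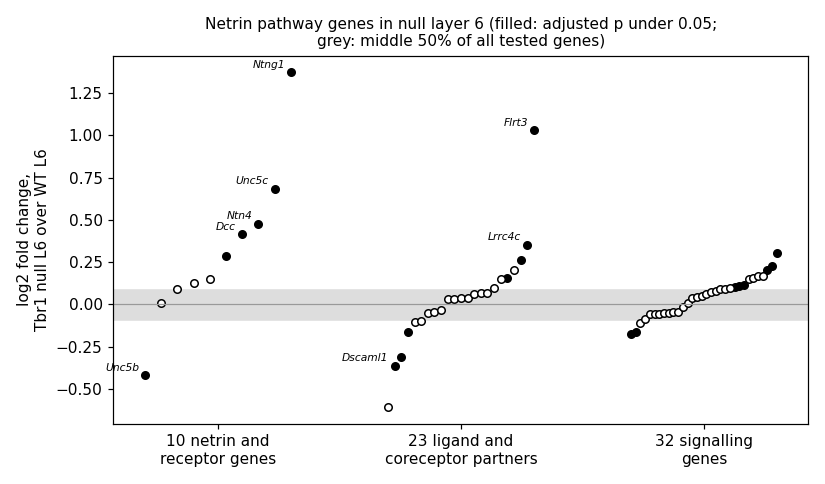
log2 fold change in null L6 over WT L6 for the 10 netrin and receptor genes, 23 ligand and coreceptor partners and 32 signalling genes, ordered by value within each set, with filled points at an adjusted p under 0.05. The grey band runs from the lower to the upper quartile of all tested genes, -0.091 to 0.085, and Ntng1, Flrt3 and Unc5c lie farthest above it.

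Markers of other cell types were read in the same libraries, where 7.31% of all tested genes rose in null L6 against WT L6 and 6.86% fell. In null L6, 3 of 14 vascular markers (Cdh5, Cldn5 and Col3a1) fell and the others were not called, and their summed level was 589.7 to 684 CPM against 716 to 769 CPM in WT L6. That count of 3 was 1 without null replicate 1, null replicate 2 or WT L6 replicate 2. Of 14 astrocyte markers, 7 rose and 2 fell, with sums of 1403 to 1479 CPM in null L6 and 1194 to 1371 CPM in WT L6. Of 10 oligodendrocyte lineage markers tested, 2 rose and 5 fell, with sums of 269.8 to 284 CPM in null L6 and 281 to 293 CPM in WT L6; 4 were called without WT L6 replicate 4. With libraries summed within pairs, 2 astrocyte, 3 oligodendrocyte lineage, 1 interneuron and 0 vascular markers were called. The myelin marker Mobp was at 0 in all null L6 libraries and at most 0.044 CPM in WT L6. Of 16 interneuron markers, 1 rose and 5 fell, with sums of 443 to 458 CPM in null L6 against 471 to 500.1 CPM in WT L6. Of 12 microglia markers, 0 were called by edgeR on the 2 groups or by DESeq2 and 3 had an unadjusted edgeR p under 0.05; edgeR called 1 with all 3 groups in one fit and 2 against WT L6 replicates 1 and 2 alone. Their sums were 130 to 139 CPM in null L6 against 132 to 140 CPM in WT L6. Among neuronal lists, 5 of 8 subplate markers tested fell and none rose, with sums of 129 to 215 CPM in null L6 against 287 to 333 CPM in WT L6. Of 11 subcerebral L5 markers, 5 rose and 1 fell, with sums of 1263 to 1279.9 CPM in null L6 against 1100.4 to 1140.3 CPM in WT L6. Of 11 markers of progenitors and newborn neurons, 4 rose and none fell, with sums of 1547 to 1713 CPM in null L6 against 1445 to 1526 CPM in WT L6. The sums of these 3 lists did not overlap between the groups, and 3 subplate, 3 subcerebral and 1 progenitor marker were called with libraries summed within pairs. Of 8 excitatory neuron markers, 1 rose and 2 fell. Their sums were 4277 to 4600 CPM in null L6 and 4632 to 4810 CPM in WT L6, without overlap. Tubb3, which was not called, made up most of these sums. Of 11 upper-layer markers, 2 rose and 2 fell. Their sums overlapped, at 2091.5 to 2270 CPM in null L6 and 2072 to 2265 CPM in WT L6. With libraries summed within pairs, 3 excitatory neuron and 3 upper-layer markers were called. The part of these cells in the values of Unc5b, Ntn4 or any other of the 10 genes was not tested.

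WT L5 libraries were set against WT L6 libraries. Ntn1, Ntng2 and Ntn4 rose in layer 5, Unc5d, Dcc, Unc5a, Neo1, Ntng1 and Unc5b fell, and Unc5c was not called. Of all tested genes, 85.5% were called, 42.2% upward and 43.4% downward, and the groups did not overlap for 81.2%, so 9 called and 9 non-overlapping genes of 10 are close to that background. The median log2 fold change was -0.42 over the 10 genes and -0.010 over all genes. Layer 6 was sequenced in batch A and layer 5 in batches B and C, so layer and sequencing batch cannot be told apart. No batch holds both groups, which leaves no within-batch value. With batch B or batch C alone, the same 9 genes were called. The close layer 5 pairs span these batches, so B and C are not independent samples, and neither shares a batch with layer 6. That agreement therefore cannot separate layer from batch.

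The layer 5 libraries also differed in other cells. Of 14 astrocyte markers, 13 were higher in layer 5 and 1 lower, with sums of 7273 to 7322 CPM in WT L5 and 1194 to 1371 CPM in WT L6. All 12 oligodendrocyte lineage markers tested and all 12 microglia markers were higher, as were 12 of 14 vascular markers, whose sums were 1256 to 1274 CPM in WT L5 and 716 to 769 CPM in WT L6. Of 11 markers of layer 5 subcerebral neurons, 2 were higher and 7 lower in the libraries labelled layer 5, with sums of 563 to 578 CPM in WT L5 and 1100.4 to 1140.3 CPM in WT L6. Of 8 excitatory neuron markers, 3 were higher and 4 lower in WT L5. Their sums were 2778 to 2792 CPM in WT L5 and 4632 to 4810 CPM in WT L6. Tubb3, 1 of the 4 lower markers, made up most of these sums, at a mean of 1768 CPM in WT L5 and 3308 CPM in WT L6. The 3 higher markers were Camk2a, Nrgn and Slc17a7, so the sums do not stand for the list as a whole. Of 16 interneuron markers, 4 were higher and 10 lower. Their sums were 307 to 316 CPM in WT L5 and 471 to 500 CPM in WT L6. The part of all these cells in the WT L5 values below was not tested.

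**Figure D4:**
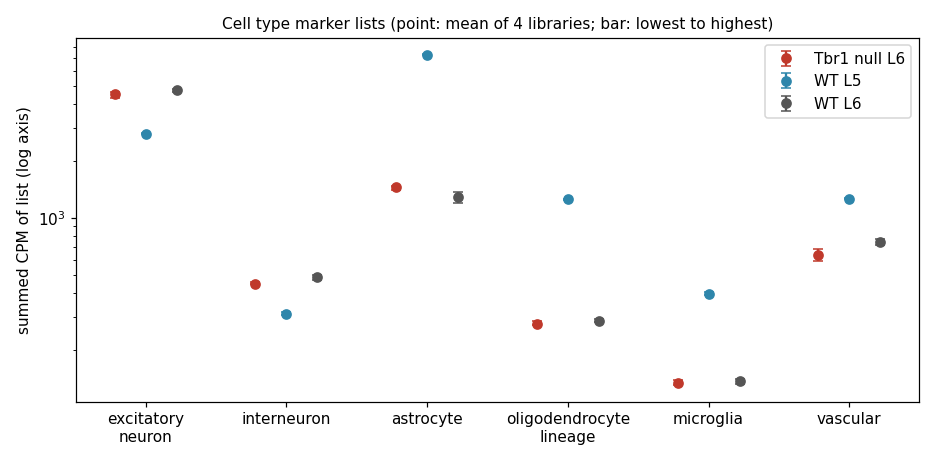
Summed CPM (log axis) of 6 cell type marker lists in Tbr1 null L6, WT L5 and WT L6, with points at the mean of 4 libraries and bars from the lowest to the highest library. Astrocyte, oligodendrocyte lineage, microglia and vascular sums are highest in WT L5. The layer 6 groups lie nearer to each other than to WT L5. Their excitatory neuron, interneuron, astrocyte and vascular sums still do not overlap. Tubb3 makes up most of the excitatory neuron sum in every group.

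Ntn1 was at 24.6, 24.6, 23.3 and 24.3 CPM in WT L5, above all WT L6 libraries (8.81 to 10.6 CPM), with a log2 fold change of 1.29 ± 0.064 and an edgeR adjusted p of 7.78e-11. Ntng2 was at 65.1, 61.8, 66.6 and 61.7 CPM in WT L5, against 34.3 to 36.6 CPM in WT L6, a log2 fold change of 0.84 ± 0.037. Ntng1 moved the other way, at 8.08, 7.57, 7.53 and 6.82 CPM in WT L5 against 10.99 to 13.5 CPM in WT L6, a log2 fold change of -0.68 ± 0.085. The netrin-G genes thus lay on opposite sides of WT L6 in layer 5, and reads of Ntng1 per read of Ntng2 were 0.111 to 0.124 in WT L5. Dcc was at 37.2, 36.5, 37.2 and 35.8 CPM in WT L5 and at 110 to 136 CPM in WT L6, which is 3.33-fold lower. Unc5d was at 34.5, 35.3, 33.6 and 33.7 CPM in WT L5 and at 119 to 134 CPM in WT L6, which is 3.73-fold lower. Neo1 and Unc5a were 1.94-fold and 2.21-fold lower in WT L5. All edgeR adjusted p of these 7 genes were 3.12e-06 or less.

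Ntn4, Unc5b and Unc5c differed little between the layers. Ntn4 had a log2 fold change of 0.39 ± 0.087 in layer 5, with 11.6 to 13.5 CPM in WT L5 and 8.66 to 11.1 CPM in WT L6. Unc5b had one of -0.16 ± 0.045, at 25.2 to 25.8 CPM in WT L5 and 27.1 to 29.9 CPM in WT L6, and lost its call at an adjusted p of 0.201 in limma on the authors' normalized table. Unc5c was at 60.7, 56.6, 58.1 and 56.2 CPM in WT L5 and overlapped WT L6. Its log2 fold change was -0.052 (95% interval -0.13 to 0.024), with an edgeR adjusted p of 0.182 that became 0.0315 with no filter on low counts and 0.0409 with library totals only.

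Null L6 libraries, sequenced in batch A, were also compared with WT L5, sequenced in batches B and C. Group and batch cannot be told apart in this comparison, and the part of other cells in it was not tested. These 3 comparisons share libraries and are not independent of each other. Here 84.3% of all genes were called, 42.4% upward and 41.8% downward, the groups did not overlap for 79.9%, and 9 of the 10 genes were called, 6 higher and 3 lower in null L6. The edgeR log2 fold changes were 2.14 ± 0.033 for Dcc, 2.05 ± 0.056 for Unc5d, 2.05 ± 0.088 for Ntng1, 1.23 ± 0.066 for Unc5a, 1.07 ± 0.027 for Neo1 and 0.73 ± 0.039 for Unc5c. The genes lower in null L6 were Ntn1 at -1.29 ± 0.055, Ntng2 at -0.56 ± 0.052 and Unc5b at -0.27 ± 0.048, and the largest edgeR adjusted p of the 9 was 9.97e-05. Ntn4 was not called, with a 95% interval of -0.079 to 0.23.

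The partner lists moved widely between the layers, as did most genes. Of the 23 ligands and coreceptors, 8 were higher and 13 lower in WT L5 than in WT L6, with a median log2 fold change of -0.54. Draxin averaged 30.6 ± 1.17 CPM in WT L5 against 212 ± 7.42 CPM in WT L6 (SD, n = 4 each), and Cbln4, a relative of Cbln1, had a log2 fold change of -2.92. Of the 32 signalling genes, 15 were higher and 13 lower, with a median of 0.11. The largest rises in layer 5 were those of Myo10 at 1.95, Dock1 at 1.88, Trim67 at 1.86 and Trim9 at 1.49 on the log2 scale; Trim9 and Trim67 encode ubiquitin ligases that bind DCC. In null L6 against WT L5, 12 of the 23 partners were higher and 7 lower, and 14 of the 32 signalling genes were higher and 16 lower.

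The order of the 3 groups differed from gene to gene. The place of WT L5 in each order carries the limits of batch and other cells given above, and most genes were called against WT L5. From low to high, Ntng1 and Dcc ran from WT L5 over WT L6 to null L6, with each step called. Neo1, Unc5a and Unc5d were lowest in WT L5, and their layer 6 groups were not told apart. Ntng2 ran from WT L6 over null L6 to WT L5, and Unc5b from null L6 over WT L5 to WT L6. Ntn1 was highest in WT L5 and Unc5c in null L6, with the other groups not told apart. Ntn4 was lowest in WT L6, with null L6 and WT L5 not told apart.

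In WT L5 the coefficient of variation of the 10 genes was 1.06% for Unc5b to 6.90% for Ntng1. In null L6 it was 2.61% for Neo1 to 12.2% for Ntng1, and in WT L6 it was 2.93% for Ntng2 to 12.2% for Ntn4. In RefSeq (GRCm38.p6) the spans of Ntn1, Ntn4, Ntng2 and Unc5a overlap other genes of the count table (Mir6406; Gm15915 and Gm8580; 6530402F18Rik; Hk3). The processing notes of these libraries list the build mm9, so the spans used in counting may differ from these. The strand setting of the counting was not stated, so reads in such overlaps could not be told apart.

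The 5 genes whose levels over the 12 libraries were most like those of Ntng1 were Fgf9, a growth factor gene, Cntn4, an axonal contactin gene, Nefm, the medium neurofilament subunit gene, Slc9a2, a sodium-proton exchanger gene, and Gpr83, a receptor gene. Likeness was the root mean square difference of log2(CPM + 0.5) after centring each gene. It was taken over 13531 genes with a mean of at least 1 CPM, counted before genes were left out. The difference was 0.165 for Fgf9, 0.171 for Cntn4, 0.202 for Nefm, 0.231 for Slc9a2 and 0.234 for Gpr83. Fgf9 averaged 15.95 CPM in null L6, 4.29 CPM in WT L5 and 6.12 CPM in WT L6. Nefm averaged 104.7 CPM in null L6, 21.15 CPM in WT L5 and 40.6 CPM in WT L6.

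**Figure D5:**
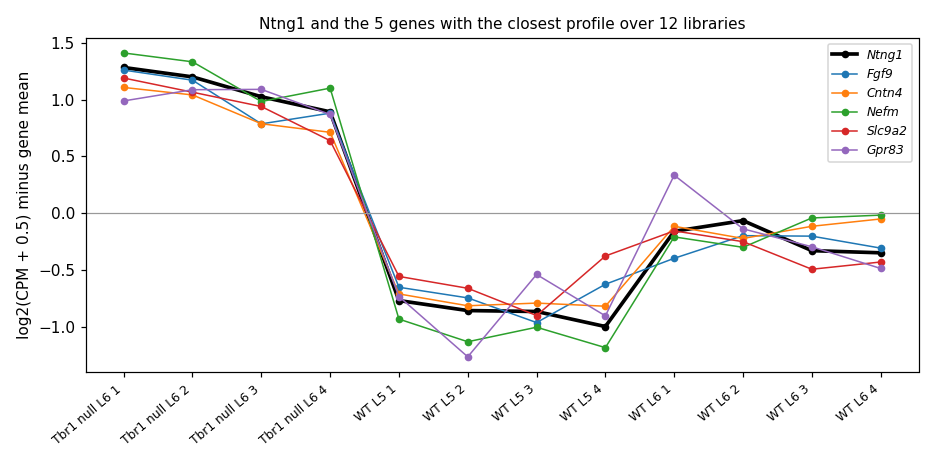
log2(CPM + 0.5) minus the gene's mean in each of the 12 libraries for Ntng1 (thick black line) and the 5 genes named above. Lines join libraries only to guide the eye. In all 6 genes the 4 null L6 libraries are highest, and WT L5 lies mostly below WT L6.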

How the data were processed

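The authors deposited whole-read counts per gene for 12 libraries; for these libraries the submitters' processing notes name STAR 2.5.2b, HTSeq and bedtools. The same notes list mm9 as the genome build. The annotation and strand setting of the counts were not stated. Per the labels' protocols, libraries were stranded, ribosome-depleted total RNA. The authors also deposited a normalized table of whole-number scores, used only as an alternative on log2(score + 1). All columns matched a sample (0 unmatched), and peak lists were not used.

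Counts were tested with edgeR 4.0.16 (R 4.3.3): TMM, filterByExpr, a quasi-likelihood F-test fitted to each pair of groups, and Benjamini-Hochberg adjustment over all genes, called under 0.05. SE is the absolute log2 fold change divided by the root of F. The fit was run on simulated counts of independent libraries, which lack the pairs seen here, so it cannot speak to pairing. For null L6 against WT L6 it called 31 of 50 changes of 1.25-fold and 50 of 50 of 4-fold. It also called 11 unchanged genes. Alternatives used limma 3.58.1, DESeq2 1.42.0, other filters, scalings and subsets. Named genes are the 10 genes, Tbr1, up to 4 called genes per partner list with the largest fold change, and 5 genes by likeness; Lrrc4, Lphn2, Lphn3, Rgma, Rgmb, Xist, Mobp, Ntn5, Hfe2, Cdh5, Cldn5 and Col3a1 were named after their values were seen. Tubb3, Camk2a, Nrgn and Slc17a7 were also named after their values were seen. The members and lists were chosen with earlier results of these data known.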

Additional observations from a re-analysis of the deposited data

Results flagged for a closer look

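Unc5b in WT layer 5 replicate 1 was at 25.24 CPM, while the other 3 libraries of the group were at 25.77 to 25.82 CPM. It stood out because its gap to the nearest library was 0.91 of the group's range. The whole range is small, and 33 sets of 4 libraries were examined, of which chance flags about 1 in 20.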

How the results depend on the processing

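In null against WT layer 6, 6 of the 10 genes were called, and 5 to 7 in the alternatives. Leaving out 1 library gave 6 to 7 of the 10 genes, 6 to 7 of the 23 partners, 6 to 8 of the 32 signalling genes and 1632 to 1838 of all genes, which were 2068 in the main test. With libraries summed within pairs, 479 genes were called over all, 1 partner and 1 signalling gene, and 1277 genes with limma-voom and a random block for the pair; summing leaves fewer samples. Ntn1 changed sign, never called, to -0.00082 with summed pairs, -0.0018 with the random block, -0.041 to 0.0456 over the fits that leave out 1 library, -0.024 against WT replicates 1 and 2 and -0.013 with library totals only. Against WT replicates 1 and 2, Draxin had -0.0075 and Trim67 0.017, neither called. With the replicate block, 6 of the 10 genes were called (1526 genes in all). Same-numbered null and WT layer 6 libraries did not deviate together (r = -0.149 to -0.081). Over all comparisons the highest r was 0.0199, for WT layer 5 against WT layer 6. Low r values cannot show whether libraries of equal number belong together, so that question stays undecided. In the layer comparison 8 to 10 of the 10 genes were called, and 9 to 10 between null layer 6 and WT layer 5. The main tests of these 2 comparisons called 85.5% and 84.3% of all genes, so both counts are close to that background. The use of library totals and of the authors' table was chosen after seeing the data. Low counts limit Ntn5 and Hfe2, both under 1 CPM.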
